A study of Mus musculus with 11 samples.

Results

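Broad H3K27me3 domains of young quiescent satellite cells were taken as the peaks wider than 5000 bp in the H3K27me3 list of young QSCs. Of the 11658 peaks in that list, 559 were kept (4.79%, Wilson 95% interval 4.42 to 5.20), and they held 4.54 Mb, or 21.2% of all bases under young QSC H3K27me3 peaks. The width that chose them is a description and not a result. One further peak passed the width rule and was left out, because it lies in a block on chromosome 8 that was set aside; it spanned 87904 bp with a score of only 330.4, and peaks of nearly the same width lay on it in the ASC H3K27me3 list (87938 bp) and in the young QSC H3K4me3 list (87758 bp).

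The study profiled histone marks by ChIP-seq in satellite cells, the stem cells of skeletal muscle, sorted from hindlimb muscles of male C57BL/6 mice as VCAM+, CD31-, CD45- and Sca1- cells. Quiescent cells (QSCs) came from young mice of 2 to 3 months and from old mice of 22 to 24 months, and activated cells (ASCs) from young mice. The sample labels describe ASCs as young QSCs grown for 3 days on a coated surface in F10 medium with 10% horse serum, whereas the text of the study speaks of cells activated in injured muscle, so culture and activation cannot be told apart here. H3K4me3 and H3K27me3 were profiled in each of the 3 cell states and H3K36me3 in young QSCs and ASCs only, with 1 library per state and mark, and each state also had an input library. All mice were of the same strain and sex, sorted cells were frozen until there were enough for a reaction, and the sort was not checked against marker genes because gene positions in the build of the lists were not used here.

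H3K27me3 is placed on histone H3 by Polycomb repressive complex 2, whose EED subunit binds the finished mark and helps the enzyme to spread it to neighbouring nucleosomes. The mark is known for covering silent developmental genes, often in wide domains that start from CpG islands. H3K4me3 marks promoters and CpG islands, and places that carry both marks are called bivalent and are common at developmental genes in stem cells. H3K36me3 lies over the bodies of transcribed genes and is seldom found on the same nucleosomes as H3K27me3.

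Each domain is a peak called by MACS against an input library, with a score that grows as the p-value of the peak falls. The domains were from 5007 to 26702 bp wide, with a median of 6889 bp and quartiles of 5707 and 9449 bp. Their scores ran from 88.7 to 3233 with a median of 1522, against a median of 103 over the whole list, and 69 of them were tied at exactly 3100, with 11 above it. A score below 1000 was found for 141 of the 559. The narrowest members were 5007, 5017 and 5021 bp wide, and the widest peaks left outside were 4999, 4999 and 4998 bp wide. The 20 members nearest the limit had a median of 96.2% of their length under ASC peaks and 37.3% under old QSC peaks, and the 20 peaks just outside had 97.7% and 22.9%.

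Peaks of such width were a different share of each H3K27me3 list. ASCs had 848 peaks wider than 5000 bp among 38307, and old QSCs had 17 among 17635. Of these, 394 in ASCs and 9 in old QSCs lay on the young domains. The median peak was 1228 bp wide in young QSCs, 866 bp in ASCs and 838 bp in old QSCs, and the 3 lists covered 21.4, 48.9 and 16.9 Mb. The number of reads in each library is unknown, so the part of sequencing depth in these widths, and in every coverage given here, was not tested.

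In ASCs the domains were covered almost from end to end. ASC H3K27me3 peaks lay on 552 of the 559 domains (98.7%, 95% interval 97.4 to 99.4), and the share over all young QSC H3K27me3 peaks was 74.3%. Wider peaks have more room for an overlap, and for young peaks over 3000 and up to 5000 bp the share was 95.8%. The median domain had 97.4% of its length under ASC peaks (95% interval of the median 96.2 to 98.1), with quartiles of 88.2% and 99.9%. At least 80% of the length was covered in 465 domains (83.2%, against 56.8% of all young peaks) and at least 95% in 333. Summed over all domains, 4.10 Mb or 90.4% of the bases lay under ASC peaks. The 7 domains without an ASC peak made up 1.25%, against 25.7% of all young peaks. Intervals given here cover counting error over domains or bases in 1 pair of libraries, and domains are not replicates of a cell state.

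ASC peaks also ran past the ends of the domains. Of the 1118 domain ends, 687 (61.4%, interval 58.6 to 64.3) lay inside an ASC peak, which reached a median of 914 bp further out, and 323 of these reached more than 1 kb further. A single ASC peak enclosed 135 domains whole. In addition, 39 ASC peaks each reached more than 1 domain and joined 78 domains between them. The bases outside the ends were in part under other young QSC H3K27me3 peaks. Positions outside a domain are given as negative. From -250 to 0 bp, young QSC peaks covered 19.4% of the bases and ASC peaks 58.1%. From -1250 to -1000 bp the shares were 57.2% and 61.1%. An ASC peak that passes an end or joins domains therefore need not lie on bases unmarked in young QSCs. Inside the domains there were 1.85 ASC peaks on average, with 1 in 261 domains, several in 291 and at most 7, and some were neighbours with hardly a gap between them. With ASC peaks less than 1 kb apart merged, the average was 1.05. The 993 ASC peaks that touched domains were wider than the other peaks of the same list (median 3457 against 856 bp) and scored higher (median 1284 against 95.2).

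In old QSCs most domains held H3K27me3, over a smaller part of their length than in ASCs. Young QSC coverage is full by the rule that chose the domains, so any other list could only equal it or fall below. Coverage by peaks does not measure the strength of the mark. The study reports higher H3K27me3 intensity near transcription start sites in QSCs from aged mice. It also reports more H3K27me3 peaks between genes with age, and a narrower extent of the mark at a subset of marked genes. Old QSC peaks lay on 469 domains (83.9%, interval 80.6 to 86.7), against 31.8% of all young peaks. Wider peaks have more room for an overlap, and most young peaks are narrow. The share was 68.9% for young peaks over 3000 and up to 5000 bp, and 79.5% for domains of up to 8000 bp. Pooled old QSC coverage was 30.5% and 31.1% in these 2 classes. The median domain had 33.2% of its length under old QSC peaks (interval 30.5 to 36.3), with quartiles of 15.4% and 49.6%. Summed over the domains, 1.59 Mb or 35.1% of the bases lay under old QSC peaks. There was no old QSC peak on 90 domains (16.1%, against 68.2% of all young peaks), 73 more were covered to at most 20%, 260 to between 20% and 50%, and 129 to between 50% and 80%. Coverage reached 80% or more in 7 domains, or 1.25%, against 8.5% of all young peaks. The median old QSC peak was 838 bp wide, so a single such peak can fill 80% of a narrow young peak but not of a domain. Coverage was lower in old QSCs than in ASCs in 549 of the 559 domains, higher in 8 and equal in 2.

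**Figure D1:**
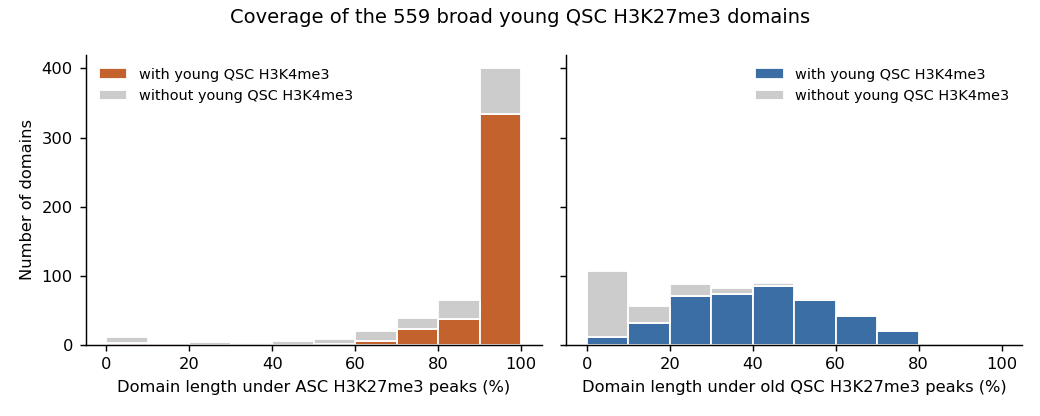
Number of domains (vertical axis) by the percent of their length under ASC H3K27me3 peaks (left) and under old QSC H3K27me3 peaks (right), in steps of 10 percentage points; coloured bars are the 406 domains with a young QSC H3K4me3 peak and grey bars the 153 without. Most domains sit in the last step for ASCs, while for old QSCs they spread from 0% to 80% and the grey domains gather near 0%.

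The old QSC H3K27me3 on the domains was a set of short pieces. The domains held 1134 old QSC peaks, 2.03 per domain on average, with 1 in 158 domains, several in 311 and at most 10. The average was 1.28 with old QSC peaks less than 1 kb apart merged, and 3.19 as deposited for the 193 domains wider than 8000 bp. Compared with the other old QSC peaks they were wider (median 1133 against 826 bp) and scored higher (median 248 against 87.1). The longest covered stretch inside a domain had a median of 1688 bp among the 469 domains with a peak, and the longest of all was 7624 bp. From a domain end, the first base under an old QSC peak lay a median of 1404.5 bp inside, or 18.3% of the domain width. Only 70 of the 1118 ends (6.26%) were under an old QSC peak, both ends were covered in 5 domains, and 1 domain lay whole inside an old QSC peak. No old QSC peak reached more than 1 domain.

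The old QSC pieces sat more often in the centre of a domain than at its edge. Each domain was divided into 20 equal bins, and the central 10 were compared with the outer 10. The central bins were 41.5% covered by old QSC peaks on average and the outer bins 24.96%, a difference of 16.6 percentage points (interval 14.1 to 19.1). Centre coverage was the higher in 335 domains, edge coverage in 133, and 91 were even, among them the 90 without an old QSC peak. In ASCs the same difference was 5.71 points (4.44 to 6.97), between 92.2% in the centre and 86.5% at the edge. Young QSC H3K4me3 peaks had the same placement as the old QSC pieces, with 31.0% of the central bins and 15.9% of the outer bins covered.

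The placement went with that of the H3K4me3 peaks inside the domains, called islands here. Among the 406 domains with a young QSC island, old QSC coverage was 52.9% in the centre and 31.1% at the edge, a difference of 21.8 points. Among the 153 domains without one it was 11.3% and 8.62%, a difference of 2.67 points (0.0947 to 5.25). Of these 153, 83 had no old QSC peak and so no difference. As a ratio, centre coverage was 1.31 times edge coverage without islands and 1.70 times with them. The outermost bins of the domains without islands were 2.57% and 3.50% covered, so coverage was low at the ends there as well. The domains with islands were then separated by where the islands lay. In the 284 domains whose islands covered more of the centre, old QSC H3K27me3 covered 59.6% of the centre and 25.9% of the edge, and the centre was the higher in 250 of them. In the 122 domains whose islands covered more of the edge the order turned, with 37.4% of the centre and 43.3% of the edge covered, a difference of -5.99 points (-10.1 to -1.91), and the edge was the higher in 71. ASC coverage was higher in the centre in both sets, by 5.10 and 3.77 points. Across the 406 domains, the centre-to-edge difference of old QSC H3K27me3 went with that of the islands (Spearman's rho 0.76). For ASC H3K27me3 the value was 0.07. These correlations are descriptions over domains of the same libraries. ASC peaks covered a median of 98.6% of these domains, and 116 of the 406 were even in ASCs. That left little room for ASC coverage to follow the islands, so the 2 values are not a contrast between the states.

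**Figure D2:**
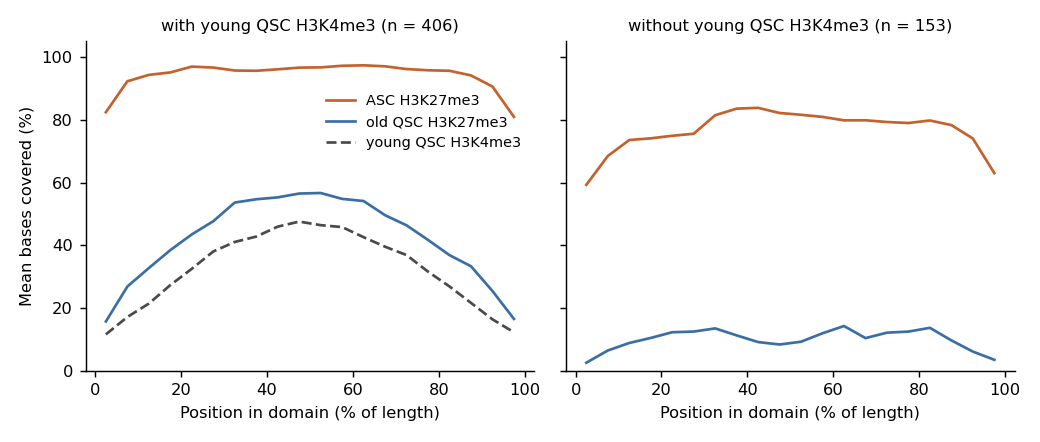
Mean percent of bases covered (vertical axis) in 20 equal bins along the domain (horizontal axis, percent of domain length), for the 406 domains with a young QSC H3K4me3 peak (left) and the 153 without (right); lines are ASC H3K27me3, old QSC H3K27me3 and, dashed, young QSC H3K4me3. With islands, the old QSC line rises toward the centre together with the H3K4me3 line. Without them it stays at or below 14.3% along the whole domain and is lowest in the outermost bins.

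H3K4me3 islands were frequent in the domains in every cell state. A peak of the mark lay on 406 domains in young QSCs (72.6%, interval 68.8 to 76.2, against 27.7% of all young QSC H3K27me3 peaks). The count was 424 in ASCs (75.8%, against 27.9%) and 424 in old QSCs (75.8%, against 28.2%). All 3 states had an island in 391 domains, and none had one in 110. Wider peaks have more room for another peak to overlap them, so these shares are read with the number of islands beside them. Young QSC H3K4me3 lay on 58.5% of young peaks over 3000 and up to 5000 bp, and on 68.3% of domains of up to 8000 bp. It covered a median of 22.5% and 21.7% of their length. Among peaks with scores of at least 1000, the shares in these 2 classes were 86.7% and 83.3%, and the median coverages 44.2% and 27.5%. Young QSCs had 689 islands in the domains, ASCs 725 and old QSCs 724, of which 627, 667 and 654 lay wholly inside. Median island widths were 1404 bp in young QSCs, 1269 bp in ASCs and 1572 bp in old QSCs. Where present, islands covered a median of 29.7%, 27.4% and 34.0% of the domain in the same order. Between 61.4% and 62.3% of the islands were centred in the central 10 bins. In young QSCs 218 domains had 1 island, 127 had 2 and 61 had 3 or more, up to 7.

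Most islands were found again in the other cell states, together with H3K27me3. Of the 688 distinct young QSC islands, 89.4% (interval 86.9 to 91.5) overlapped an H3K4me3 peak in ASCs and 93.9% (91.9 to 95.5) one in old QSCs, against 78.6% and 80.5% of all young QSC H3K4me3 peaks. ASC H3K27me3 lay on 98.5% of the islands and old QSC H3K27me3 on 92.4%, against 26% and 21.1% of all young QSC H3K4me3 peaks. Both marks were present in ASCs on 607 islands (88.2%) and in old QSCs on 616 (89.5%). Of the 2758 young QSC H3K4me3 peaks that overlapped a narrower young QSC H3K27me3 peak, H3K4me3 was found again in 88.9% in ASCs and 92.1% in old QSCs, close to the shares on the domains. H3K27me3 was found again on 93.1% of them in ASCs and 81.5% in old QSCs, both lower than on the domains. Of the young QSC H3K4me3 peaks without young QSC H3K27me3, 15.0% overlapped H3K27me3 in ASCs and 11.0% in old QSCs. The 52 islands without old QSC H3K27me3 had a median H3K4me3 score of 81.3, against 413 for the islands that had it.

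Few islands were new, but in old QSCs their share was not far from that of the whole list. In ASCs 104 of the 723 islands (14.4%) had no overlap with young QSC H3K4me3, against 41.3% of the whole ASC list, and in old QSCs 109 of 722 (15.1%), against 19.5% of the whole old QSC list. Of these 109 islands, 95 (87.2%, interval 79.6 to 92.2) also overlapped old QSC H3K27me3, against 53.98% of all 4770 old QSC H3K4me3 peaks without an overlap in young QSCs.

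Old QSC H3K27me3 lay for the most part on the islands and fell off steeply beside them. In the 406 domains with young QSC islands, 1.09 Mb were on islands and 2.36 Mb off them. Old QSC peaks covered 88.1% of the bases on islands and 22.2% of those off them, a difference of 65.9 points (63.8 to 68.0). The share was higher on the islands in 386 domains, lower in 13 and equal in 7. Islands made up 31.6% of the bases of these domains and held 64.7% of the bases that old QSC peaks covered, but 32.7% of those that ASC peaks covered. In ASCs, 97.8% of the island bases and 93.0% of the others were covered, a difference of 4.82 points (3.82 to 5.82). With nearly all bases covered, there was little room for a larger difference in ASCs.

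With distance from the nearest young QSC island, old QSC coverage went from 46.9% in the first 250 bp to 23.8% between 250 and 500 bp and 21.3% between 500 and 1000 bp. Beyond that it lay between 12.6% and 18.4% in each interval, and was lowest more than 5000 bp away. ASC coverage was 95.7% in the first 250 bp and 89.9% beyond 5000 bp. Nearness to the domain end went with lower old QSC coverage as well. On islands, old QSC coverage was 77.4% in the outer 1 kb of the domains and 89.6% further in, and between 1000 and 1500 bp from an island it was 10.8% in the outer 1 kb and 20.1% further in.

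**Figure D3:**
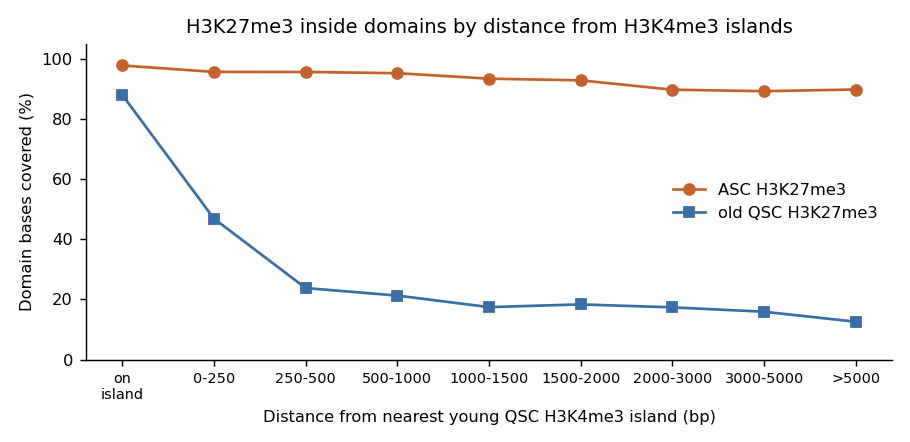
Percent of domain bases under ASC H3K27me3 peaks (circles) and old QSC H3K27me3 peaks (squares) by distance in bp from the nearest young QSC H3K4me3 island, pooled over the 406 domains with an island. Old QSC coverage falls from 88.1% on the islands to 23.8% at 250 to 500 bp, while ASC coverage stays above 89% throughout.

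Seen from the pieces, 677 of the 1134 old QSC peaks in the domains (59.7%) overlapped a young QSC island, against 30.7% of all old QSC H3K27me3 peaks. Those on islands had a median width of 1547 bp and those off islands 847 bp. With old QSC H3K4me3 in place of the young list, 67.1% of the pieces overlapped an island.

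The more of a domain its islands covered, the more of it was under H3K27me3 in old QSCs. The median old QSC coverage was 0% for the 153 domains without a young QSC island and 13.4% for the 18 with up to 10% of their length on islands. It was 28.2% for 10% to 20%, 35.98% for 20% to 30%, 46.2% for 30% to 40%, 51.7% for 40% to 50% and 62.5% for the 52 domains with more than 50% on islands. Over the 559 domains the rank correlation of old QSC coverage with island coverage was 0.78, with the score of the domain 0.62 and with its width 0.17, given as descriptions of domains that share their libraries. For ASC coverage the rank correlation with island coverage was 0.37.

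The domains without islands were the ones most often empty in old QSCs. Of the 153, 83 had no old QSC peak, against 7 of the 406 with islands, and the median coverage was 0% (interval 0 to 6.46) against 41.6% (39.2 to 43.8). ASC peaks covered a median of 87.2% of the first and 98.6% of the second. Scores differed as well, with medians of 916 without and 1912 with islands, and their part in the difference was compared within ranges of score. Between 1000 and 2000, old QSC coverage was 37.8% for 163 domains with islands and 10.1% for 58 without. Below 1000 it was 27.3% for 54 domains and 0% for 87. The 110 domains without H3K4me3 in any of the 3 states had 6.56% of their bases under old QSC H3K27me3 and 77.3% under ASC H3K27me3, and 69 of them had no old QSC peak.

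A few domains chosen by fixed rules show these arrangements, with positions in mm9. The widest domain, chr2:105501836-105528537, was 26702 bp wide and carried 4 young QSC islands. ASC H3K27me3 covered 97.4% of it in 6 pieces, and old QSC H3K27me3 31.3% in 8 pieces of 518 to 1586 bp, the longest of which lay over its widest island, 12546 to 14132 bp after the domain start. The first 5602 bp held no old QSC peak. The sixth widest, chr11:118902309-118923896, had the most young QSC islands of all (7, over 50.5% of its 21588 bp), and 67.0% of its length lay under old QSC peaks, in 9 pieces. Each of its 7 islands overlapped an old QSC piece. The 10 widest domains were all at least 20228 bp wide, had 2 to 7 young QSC islands each, and were covered to between 87.2% and 100% in ASCs and between 27.8% and 86.9% in old QSCs.

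The widest domain without an old QSC peak, chr6:127952148-127966482, was 14335 bp wide, had no H3K4me3 in young or old QSCs and was 58.0% covered in ASCs. The other 4 of the 5 widest empty domains were chr6:128063130-128076255, chr9:57944278-57955397, chr2:166111530-166122455 and chr5:112079545-112089810, and none had an H3K4me3 peak in any state. ASC H3K27me3 covered between 77.6% and 87.8% of these 4. The widest domain with under 20% ASC coverage, chr16:4644970-4656115, was 11146 bp wide and had no ASC H3K27me3 at all. It had 2 H3K4me3 islands in young QSCs, ASC H3K36me3 over 51.4% of its length, and a single old QSC H3K27me3 piece of 616 bp. The other 2 domains named by that rule, chr1:90972898-90983018 and chr2:101959571-101966759, had 7.96% and 13.5% of their length under ASC H3K27me3, no old QSC H3K27me3, and H3K4me3 in ASCs but not in young QSCs (4 peaks and 1 peak).

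**Figure D4:**
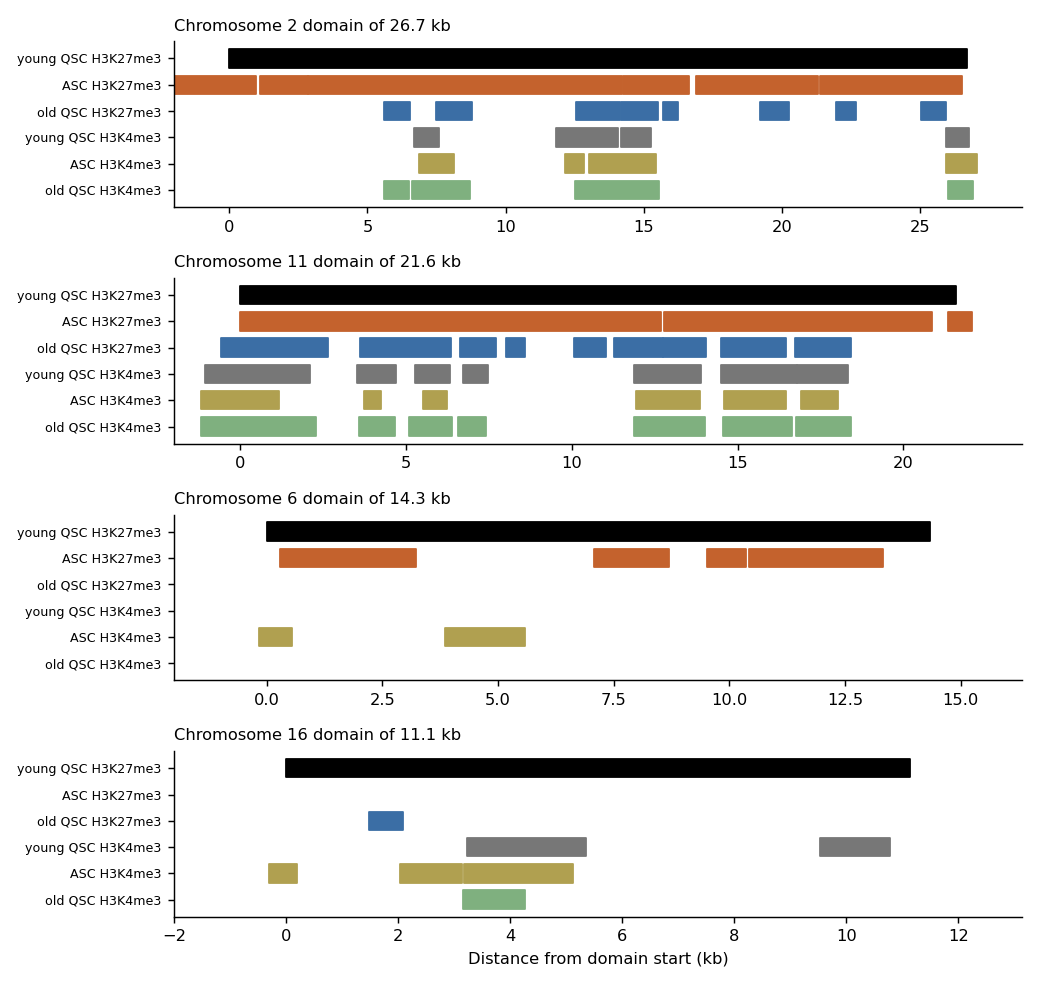
Peaks of 6 lists (rows) along 4 named domains, with distance from the domain start in kb on the horizontal axis, a separate scale per panel and 2 kb shown on either side; the black bar is the domain itself and other young QSC H3K27me3 peaks are not drawn. In the upper 2 panels, most old QSC H3K27me3 pieces lie on or beside H3K4me3 islands; the third panel has no old QSC peak of either mark and the fourth has no ASC H3K27me3.

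The widest domains with 80% or more old QSC coverage were mostly rich in islands. A narrower one, chr11:2999836-3005246, was 100% covered in old QSCs and had no H3K4me3 in young or old QSCs. Of the 5 widest with 80% or more old QSC coverage, chr1:172993522-173016639 had 72.4% of its 23118 bp under young QSC H3K4me3 and held the longest old QSC piece, and chr11:21892512-21905814 had 51.3%, chr2:147868921-147875770 70.0% and chr15:76346012-76352678 33.5%. The domain on chromosome 1 also had young QSC H3K36me3 over 59.1% of its length. The remaining one, chr17:39979502-39986318, was almost wholly under H3K4me3 (97.7%) and H3K36me3 (99.6%) in young QSCs, yet had no H3K4me3 peak in old QSCs. Its own width was 6817 bp, and single H3K27me3 peaks of 6508 bp (ASCs) and 6523 bp (old QSCs) lay on it. Single H3K4me3 peaks of 6692 bp (young QSCs) and 6626 bp (ASCs) did so too. Such matching widths in unlike marks were also seen on the peak left out on chromosome 8, and their cause was not tested. The other domains with the most islands, chr13:48751935-48769251 and chr2:71362750-71385795 with 6 each and chr13:73396822-73408558 and chr3:66773772-66788537 with 5 each, had between 48.2% and 64.1% of their length under old QSC H3K27me3.

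Narrower peaks were set beside the domains to see what went with width. The 2348 young QSC H3K27me3 peaks of 2 to 5 kb had a median of 95.8% of their length under ASC peaks and 25.1% (interval 22.9 to 27.5) under old QSC peaks, so the domains were the more covered of the 2 sets in old QSCs. The order turned among peaks with scores of at least 1000, where the 418 domains had 40.8% and the 307 narrower peaks 55.2% under old QSC peaks. Among peaks with a young QSC island it was 41.6% for the domains and 49.3% for the narrower peaks, and among those without an island 0% for both.

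Domains were spread over all 19 autosomes, with 71 on chromosome 2, 49 on chromosome 5, 45 on chromosome 11, 44 on chromosome 6 and 41 on chromosome 9. Relative to the number of young QSC H3K27me3 peaks they made up from 2.91 per 100 on chromosome 12 to 6.60 per 100 on chromosome 6, and the genome value of 4.79 lay inside the Wilson interval of every autosome except chromosome 6 (4.95 to 8.74) and chromosome 12 (1.83 to 4.61). Neighbouring domains were counted as separate in these intervals, which can make them too narrow. None of the 95 peaks on chromosome X was a domain, which allows a share of up to 3.16% as the limit of 3 counts (Wilson upper bound 3.89%), and chromosome Y had 1 peak, not a domain. Chromosomes 6, 8 and 16 had the lowest median coverages in old QSCs, 11.6%, 18.2% and 6.49%. They also had the most domains without a young QSC island relative to their number, with 25 of 44, 19 of 36 and 9 of 16.

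**Figure D5:**
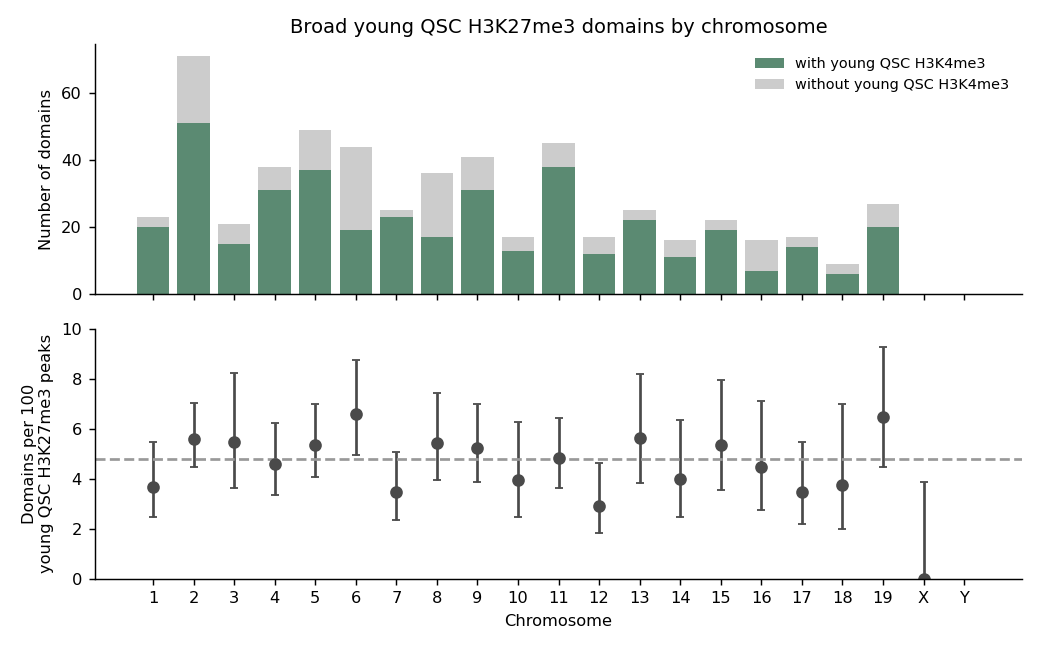
Number of domains per chromosome, with (green) and without (grey) a young QSC H3K4me3 island (top), and domains per 100 young QSC H3K27me3 peaks with Wilson 95% intervals (bottom; the dashed line is the genome value of 4.79, and chromosome Y with 1 peak is not drawn). Chromosome 2 has the most domains (71), and grey domains are the larger part on chromosomes 6, 8 and 16.

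Many domains lay close to another. The median gap between neighbours on a chromosome was 600774 bp, but 293 domains were within 50 kb of another, in 98 runs, and 68 gaps were of at most 1 kb, down to 1 bp. With young peaks less than 1 kb apart merged into 1, the width rule gave 978 domains in place of 559. Runs of 5 or more domains were 11 in number and held 94 domains, runs of 2 to 4 held 199, and 266 domains were single.

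Domains in long runs had fewer islands and less old QSC H3K27me3 than single ones. Young QSC islands lay on 90.6% of the single domains, 67.8% of those in runs of 2 to 4 and 31.9% of those in longer runs. Median old QSC coverage was 39.2% (interval 36.5 to 42.4), 32.5% (28.0 to 38.3) and 11.2% (0 to 14.5) in the same order. For ASCs it was 98.4%, 97.4% and 88.9%. In the runs of 5 or more, 39 of the 94 domains had no old QSC peak. Within a class of islands the gap was narrower: with islands the medians were 41.5% for 241 single domains and 29.5% for 30 in long runs, and without islands 0% for both (25 and 64 domains). Domains of the same run are neighbours but were counted as separate, so the intervals for runs can be too narrow.

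The longest runs, picked after their values were seen, were of differing kinds. The longest, chr2:165974947-166299379 in mm9, had 18 domains among 71 young QSC peaks over 324 kb and only 3 young QSC H3K4me3 peaks, and 69.4% of it was under ASC and 7.37% under old QSC H3K27me3. A further 3 runs had few H3K4me3 peaks in young QSCs, between 1 and 4, and were nearly empty in old QSCs: chr6:127899521-128089910 with 5.83% covered, chr8:123762886-123924185 with 9.71% and chr6:100000643-100123363 with 2.32%. Among the runs named here, those dense in H3K4me3 had more of their length under old QSC H3K27me3. These shares are over the whole run with the gaps between domains, and the young QSC share of each run is not given. The run chr11:96053578-96229604, with 11 domains and 22 young QSC H3K4me3 peaks, had 24.1% of its length under old QSC H3K27me3 and no empty domain, and chr2:74495386-74592016, with 6 domains and 18 such peaks, had 35.7% and none.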

How the data were processed

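For each ChIP-seq library the authors deposited a list of MACS peaks called against input, 1 list per cell state and mark, without replicates. The deposited score is the peak caller's significance score, with a minimum of 50 and many peaks tied at 3100; it was used to describe and filter peaks within a list only. Bowtie and the build mm9 are given in the submitters' processing notes, without versions; the peak caller's version, read numbers and treatment of duplicates are not given in the sources used here, and which input served each list was not stated. Depth is therefore unknown, and peak widths can depend on it and on the caller's settings.

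Domains were peaks of the young QSC H3K27me3 list wider than 5000 bp, outside a block on chromosome 8. Coverage is the share of a domain's bases under a list's peaks. Peaks overlapped when they shared at least 1 bp. Domains within 50 kb formed a run. Domains were named by rule: the 10 widest, and up to 5 each of the widest without old QSC peaks, with 80% or more old QSC coverage, with under 20% ASC coverage, and with most islands (the rules name more than are described, and further ones are named where said). Members, lists and rules were chosen with earlier results of these data known.

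Python 3.11.15, numpy 2.4.6, pandas 2.3.3 and scipy 1.17.1 were used, overlaps were checked against bedtools 2.31.1 and the functions were tested on simulated data, and figures were drawn with matplotlib 3.10.9. Shares have Wilson 95% intervals, medians order-statistic intervals and mean differences normal intervals over domains; all cover counting error only. With 1 library per group no test between cell states was made. Alternatives were a score of at least 100, equal numbers of top peaks, merged peaks, other widths, a 50% overlap, other bins and other distances. The genome and gene positions of mm9 were not used, so no genes or sequences are given, and the microarrays of the study were not analysed here.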

Additional observations from a re-analysis of the deposited data

Results flagged for a closer look

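Values of H3K36me3 were given above only for single named domains. The mark was found on 56 of the 559 domains in young QSCs (10.0%, Wilson 95% interval 7.80 to 12.8), against 4.71% of all young QSC H3K27me3 peaks. The domains are wider than most of those peaks and so have more room for such an overlap. Of these 56 domains, 55 also had a young QSC H3K4me3 peak, and H3K36me3 covered a median of 13.9% of their length. Their median coverage by H3K27me3 was 98.9% in ASCs and 53.4% in old QSCs. In ASCs, H3K36me3 lay on 9 domains (1.61%, interval 0.849 to 3.03), against 1.595% of all young QSC H3K27me3 peaks. No old QSC H3K36me3 library was analysed here, the H3K36me3 lists have no replicate, and no library of a control state sets their background level.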

How the results depend on the processing

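Of 117 shares, medians and means under alternatives, 61 stayed within the counting interval and 56 did not; of 12 counts, 5 stayed within 1.5 times and 7 did not. None changed sign, and 2 alternatives, a score of at least 1000 and leaving out domains mostly under H3K36me3, were chosen after seeing the data, and no value moved under the latter. The cause of the changes was not tested.

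With compared peaks less than 1 kb apart merged, median ASC coverage was 100% for domains and for 2 to 5 kb peaks, pieces per domain were 1.05 in ASCs and 1.28 in old QSCs, and the ASC on-island excess was 2.73 points. With compared scores of at least 100, old QSC peaks lay on 75.5% of domains in 1.52 pieces and covered a median of 29.2% (0% of 2 to 5 kb peaks), with an on-island excess of 68.5 points; ASC pieces were 1.66, and H3K4me3 lay on 67.8% of domains (young QSCs) or 71.6% (old QSCs). With equal numbers of top-scoring peaks, old QSC peaks lay on 79.8% of domains in 1.72 pieces, with an on-island excess of 68.1 points and a median of 19.2% of 2 to 5 kb peaks; ASC peaks lay on 96.1% in 1.503 pieces, covered 95.02% of 2 to 5 kb peaks, and had an excess of 6.75 points on islands and 8.11 points in the centre.

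For the 906 domains over 4000 bp, pieces were 1.67 in ASCs and 1.65 in old QSCs, old QSC H3K27me3 lay on 79.6%, H3K4me3 on 71.3% in ASCs and 72.1% in old QSCs, 527 were within 50 kb of another and 116 were on chromosome 2. For the 193 over 8000 bp, ASC peaks lay on 99.5% in 2.22 pieces with an on-island excess of 3.79 points, old QSC peaks on 92.2% in 3.19 pieces with a median of 39.2% and a central excess of 13.2 points; H3K4me3 lay on 80.8%, 85.0% and 83.9% in young QSCs, ASCs and old QSCs, 55 were within 50 kb of another and the fullest chromosome held 24. For the 978 domains after merging young peaks, coverage was 89.96% in ASCs and 23.8% in old QSCs, on-island excess 10.8 and 68.8 points, ASC pieces 3.04, old QSC peaks lay on 79.96% and old QSC H3K4me3 on 71.9%, 447 were within 50 kb of another and the fullest chromosome held 118. For the 418 with scores of at least 1000, ASC peaks lay on 99.8% with a median of 98.5% in 1.75 pieces, old QSC peaks on 93.8% with a median of 40.8% in 2.37 pieces and a central excess of 19.5 points; H3K4me3 lay on 84.2%, 86.6% and 86.4% in young QSCs, ASCs and old QSCs, and 173 were within 50 kb of another. With 4 central against 4 outer bins, the central excess was 11.7 points in ASCs and 26.6 points in old QSCs.

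No paired analysis was possible because each group has 1 library and no test was made.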

Other observations

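Of the 8 domains with more old QSC than ASC H3K27me3, chr11:2999836-3005246 in mm9 differed from the rest. It had the lowest score of all domains (88.7), no ASC H3K27me3, old QSC H3K27me3 over 100% of its 5411 bp, and ASC H3K4me3 over 97.2%, with no H3K4me3 in young or old QSCs. That score was below the median of the whole young QSC H3K27me3 list (103). The cause of such whole-length peaks of unlike marks in different states was not tested, so they are not read as a chromatin state. The other 7 had between 5.53% and 96.0% of their length under old QSC H3K27me3. Only 2 domains, both named above, were covered to more than 50% by young QSC H3K36me3, with 59.1% for the one on chromosome 1 and 99.6% for the one on chromosome 17. These domains were singled out after their values were seen.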
